A study of Mus musculus with 4 samples.

Results

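Endothelial marker genes and genes of angiogenic signalling were described in hearts lacking *Jun* in striated muscle. The group holds 38 genes, chosen by name as known endothelial markers, angiogenic ligands, adhesion molecules and Notch genes, out of 18193 genes on the array that 1 or more probe sets name alone. All 38 were measured, by 69 of the 45037 probe sets. Jun delta mu mice carry floxed *Jun* alleles and Cre recombinase under the creatine kinase promoter, which acts in striated muscle, and their Jun f/f controls carry the floxed alleles and no Cre. RNA of 2 Jun delta mu hearts and 2 Jun f/f hearts was hybridized, 1 array per heart. All mice were 10 weeks old, without pressure overload, and of the mixed 129/Ola-C57BL/6 background, with littermates used as controls according to the methods. The source, the titles and the methods for the arrays name hearts, and the arrays were taken as whole hearts. The growth notes of the samples describe plated cells of digested ventricles, which the methods give for neonatal cardiomyocyte cultures. Why the notes name them was not resolved. Signals are log2 values from RMA, so that a difference of 0.10 is a change of a few percent, and every difference given is Jun delta mu minus Jun f/f. No result had more than 2 arrays per genotype behind it. The tests set a difference against the spread of these arrays, moderated towards the spread over all probe sets.

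Endothelial cells line the vessels of the heart and the inner face of its chambers. They make up a large share of the non-muscle cells of the adult mouse heart. VEGF ligands, made in large part by muscle and other tissue cells, act on the receptor tyrosine kinases Kdr, Flt1 and Flt4 of the endothelium. Angiopoietins act on Tek, which works together with Tie1. Dll4 and Notch1 restrain sprouting among neighbouring endothelial cells, and ETS and SoxF transcription factors keep up endothelial identity. c-Jun is a subunit of AP-1, a transcription factor known to act at promoters of adhesion molecules when endothelium is activated. The deletion was directed at muscle cells, which make several of the ligands, and not at the endothelium that carries the markers and receptors.

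On the deleted gene itself, the brighter *Jun* probe set was at 7.02 and 7.14 in Jun delta mu hearts, against 8.30 and 9.00 in Jun f/f hearts, a difference of -1.57 past the study's threshold. That threshold is a difference above 1.3-fold (0.379 on the log2 scale) with an unadjusted p under 0.05, taken here from limma, and it is the call used below. The methods took the p from Student's t-test, by which 200 of all probe sets passed here, against 688 by limma. They also accepted selected genes whose difference was borne out by quantitative RT-PCR. Median signals of the arrays lay between 5.45 and 5.47. Jun f/f replicate 1 was the least alike of the arrays, correlating with them at 0.994 to 0.995. It was also the array farthest from the 4-array mean for 16 of the 38 genes. This was not particular to them. Over all genes the deviations on this array had a standard deviation of 0.16, against 0.11 to 0.12 on the other arrays. All 14 defining endothelial markers, such as *Pecam1* and *Cdh5*, were above the array median on each array, with 7.54 as their lowest signal, which fits the labelled tissue. Of the 38 genes, *Procr*, *Sele* and *Selp* lay below the median by their brightest probe set, where RMA values compress differences.

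No endothelial or angiogenic gene passed the study's threshold in Jun delta mu hearts. None of the 69 probe sets passed, against 1.53% of all 45037 probe sets and 1.45% of all genes taken by their brightest probe set. The lowest adjusted p among the 69 was 0.896 (limma, Benjamini-Hochberg over all probe sets). An unadjusted p under 0.05 was found for the brightest probe sets of 2 genes on the lower side, *Tie1* and *Mmrn2*, and of none on the higher side, against 2.12% and 2.45% of all genes. Which genes these were depended on the test. With the methods' own test *Mmrn2* was no longer among them, and *Flt1*, *Emcn* and *Icam1* joined *Tie1*. With the replicate number as a block neither *Tie1* nor *Mmrn2* was, and *Angpt1* was, on the higher side. The differences were small. They ranged from -0.30 for *Vegfc* to 0.34 for *Angpt1*, and 30 of 38 were within 0.2 on either side of 0. For 23 genes the whole 95% interval of the difference lay within 1.3-fold, whereas for the other genes it reached beyond 1.3-fold on 1 side or both, so that a change of that size is not excluded by these arrays.

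Within this narrow range more genes lay on the lower side. The median difference of the 38 genes was -0.04, with 24 below 0 and 13 above. Over all 18193 genes the median was 0.01 and 47.6% were below 0. This lean was smaller with quantile normalization, by which *Robo4*, *Icam2* and *Vegfa* were above 0 instead of below, and *Flt4* was at 0.04. Both Jun delta mu arrays lay below both Jun f/f arrays for 14 of the 38 genes, 36.8%, where the share over all genes was 15.9%. Both lay above for 2 genes, *Sox7* and *Vegfb*, where the share over all genes was 17.8%. The shares over all genes, here and below, were not matched for signal, while 35 of the 38 genes lay above the array median. The gaps between the groups were at most 0.19, and for 4 of the 14 genes under 0.02. The 38 genes come in large part from the same cells of the same 4 hearts, so that 14 is not a count of independent events. In whole hearts, fewer endothelial cells and less RNA of these genes per cell cannot be told apart. With Jun f/f replicate 2 left out, 7 probe sets of the group passed, all lower, from *Mmrn2*, *Vegfc*, *Cldn5* and *Procr*, when 7.66% of all probe sets did. With Jun f/f replicate 1 left out, 4 passed, of which *Angpt1* was higher and *Kdr* and the dimmer probe sets of *Cdh5* and *Vegfa* were lower, when 2.22% did.

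**Figure D1:**
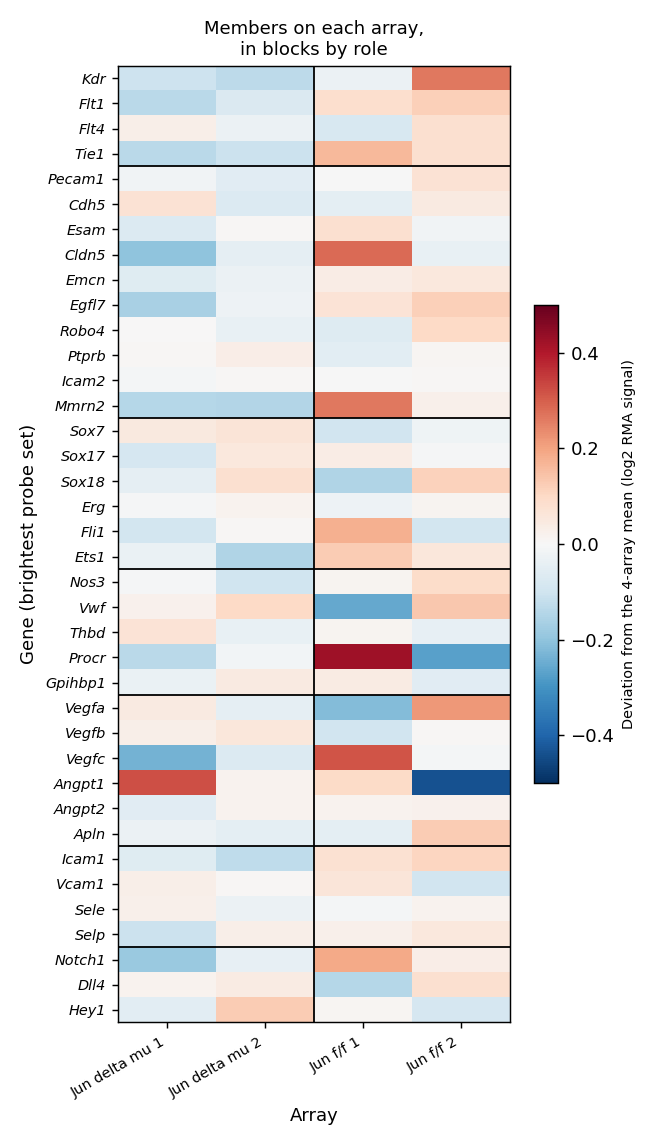
Signal of the 38 genes (rows, brightest probe set, in blocks by role) on each of the 4 arrays (columns), as the deviation from that gene's mean over the arrays in log2 RMA signal, with blue below and red above the mean. Blue prevails in the Jun delta mu columns among receptors and surface proteins, and the single darkest fields, of Procr and Angpt1, lie on Jun f/f arrays.

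Of the 4 receptors, 3 had separate groups, all lower in Jun delta mu hearts, where 15.9% of all genes had such groups. *Tie1*, an endothelial receptor without a well-known ligand of its own, was at 8.15 and 8.17 in Jun delta mu hearts, against 8.44 and 8.36 in Jun f/f hearts. Its difference was -0.24 (standard error 0.09, adjusted p = 0.896), or 84.5% of the level in Jun f/f hearts when converted back from the log scale. *Flt1*, the VEGF receptor that also acts as a trap for the ligand, was at 9.46 and 9.52 in Jun delta mu hearts, against 9.68 and 9.72 in Jun f/f hearts. The groups did not overlap, and the difference was -0.21 (standard error 0.09, adjusted p = 0.896). All 4 *Flt1* probe sets were below 0, between -0.22 and -0.07, and 3 of them had groups that did not overlap. Probe sets of 1 gene share the hearts and are no replicates of each other. *Kdr*, the main signalling receptor for VEGF-A, was at 9.52 and 9.50 in Jun delta mu hearts, against 9.59 and 9.89 in Jun f/f hearts. The Jun delta mu hearts were nearly equal, and the difference of -0.23 (standard error 0.12) rested on the high value of Jun f/f replicate 2. With that array left out it was -0.09, and with replicate 1 left out it was -0.38 and past the threshold. *Flt4*, the VEGF-C receptor best known from lymphatic vessels, stood at 7.65 and 7.58 in Jun delta mu hearts, against 7.54 and 7.70 in Jun f/f hearts. Its groups overlapped and the difference was 0.00, with a 95% interval from -0.25 to 0.25.

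**Figure D2:**
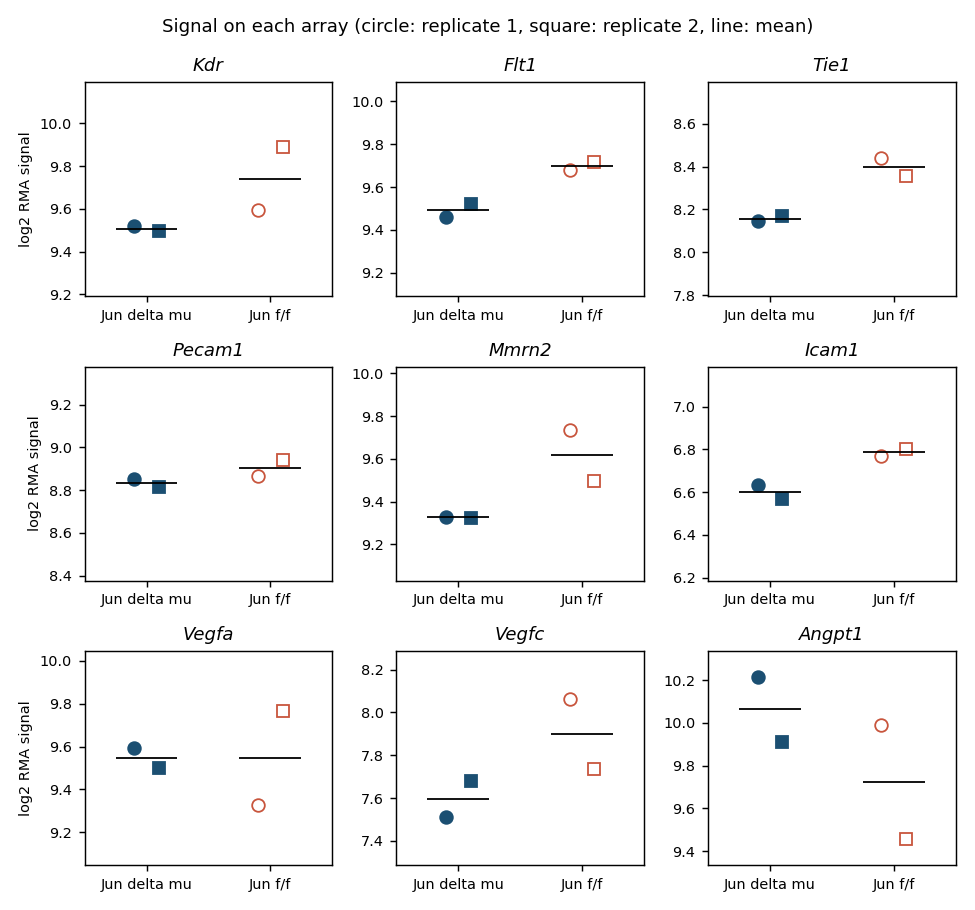
Log2 RMA signal (vertical axes, each spanning 1 unit) of 9 genes on each array, with filled symbols for Jun delta mu hearts, open symbols for Jun f/f hearts, a circle and a square for the first and second heart, and horizontal lines for group means. The groups are separate for Kdr, Flt1, Tie1, Pecam1, Mmrn2, Icam1 and Vegfc, and overlap for Vegfa and Angpt1.

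The promoters of the 3 receptor genes with separate groups are shown because these genes lay lower together. They are RefSeq sequences on GRCm38.p6. Promoters of 19 of the 38 genes, in 24 windows, were analysed here, each window of 250 bases before to 50 after a start. The 250 bases before the start are printed, 5′ to 3′ on the strand of the gene. Windows were searched on both strands for TGANTCA (AP-1), CGGAAG (an ETS core) and TGACGTCA (the cAMP response element, which Jun and ATF proteins can bind as dimers). The last motif was added after the *Flt1* sequence was seen. Matches are in capitals.
Tie1, chr4:118489850-118490099, minus strand: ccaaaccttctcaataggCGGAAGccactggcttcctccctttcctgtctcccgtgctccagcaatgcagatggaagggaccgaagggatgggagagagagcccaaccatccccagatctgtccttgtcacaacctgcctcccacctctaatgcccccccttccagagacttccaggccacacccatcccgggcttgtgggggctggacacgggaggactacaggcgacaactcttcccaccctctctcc
Flt1, chr5:147726012-147726261, minus strand: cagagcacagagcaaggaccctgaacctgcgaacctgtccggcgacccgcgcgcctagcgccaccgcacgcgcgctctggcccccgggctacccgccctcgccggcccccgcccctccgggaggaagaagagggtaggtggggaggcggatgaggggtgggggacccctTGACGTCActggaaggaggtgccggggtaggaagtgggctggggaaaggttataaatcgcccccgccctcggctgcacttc
Kdr, chr5:75978456-75978705, minus strand: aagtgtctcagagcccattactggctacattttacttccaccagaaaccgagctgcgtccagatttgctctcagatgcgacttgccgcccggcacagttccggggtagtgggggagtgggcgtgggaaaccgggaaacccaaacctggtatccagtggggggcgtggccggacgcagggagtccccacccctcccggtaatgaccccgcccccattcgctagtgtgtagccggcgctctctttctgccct

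In the printed sequences, *Tie1* held 1 match to CGGAAG, 232 bases before the start, and *Flt1* held 1 match to TGACGTCA, 81 bases before it. *Kdr* held none of the 3 motifs. The shorter sequence GGAA, which is part of CGGAAG, occurred on either strand 7 times in the printed *Tie1* sequence. It occurred 4 times in that of *Flt1* and 4 times in that of *Kdr*, and was not counted over all windows. Over all 24 windows, CGGAAG occurred in 2, of *Procr* and *Tie1*, or 8.33%, against 16.9% of all 32851 promoter windows. TGACGTCA occurred in 1, of *Flt1*, or 4.17%, against 1.79%. As this motif was added after that sequence was seen, the match was fixed in advance. These 2 shares therefore cannot be compared. A match of letters is a description of the sequence only.

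Among 10 surface and junction proteins, *Mmrn2* differed most. It encodes multimerin-2, a matrix protein that endothelial cells lay down. Its signal was 9.33 on each Jun delta mu array, against 9.74 and 9.50 in Jun f/f hearts. Its difference was -0.29 (standard error 0.11, adjusted p = 0.896), or 81.8% of the Jun f/f level. All 4 of its probe sets had separate groups, with differences from -0.38 to -0.23, and the largest of these came closest of the group to 1.3-fold on the lower side. The signal was high on Jun f/f replicate 1. With Jun f/f replicate 2 left out, the difference was -0.41 and past the threshold, and with replicate 1 left out it was -0.17. *Cldn5*, the claudin of endothelial tight junctions, was at 7.69 and 7.84 in Jun delta mu hearts, against 8.18 and 7.85 in Jun f/f hearts. Jun f/f replicate 1 was high and the other arrays lay close together. The difference of -0.25 became -0.41 and passed the threshold when Jun f/f replicate 2 was left out, and became -0.09 when replicate 1 was.

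The most used endothelial markers differed little. *Pecam1*, which encodes CD31 at endothelial contacts, was at 8.85 and 8.81 in Jun delta mu hearts, against 8.87 and 8.94 in Jun f/f hearts. The groups were separate by 0.02, and the difference of -0.07 had a 95% interval from -0.29 to 0.15. *Cdh5*, the cadherin of endothelial junctions, was at 8.03 and 7.89 in Jun delta mu hearts, against 7.91 and 8.01 in Jun f/f hearts. These overlapped, with a difference of 0.00 and an interval from -0.24 to 0.25, while its dim second probe set was at -0.19. *Egfl7*, a protein secreted by endothelium, was at -0.19 by its brightest probe set, with separate groups, but between -0.03 and 0.04 by its other 3. The sialomucin *Emcn* was at -0.09 with separate groups. *Esam*, *Robo4*, *Icam2* and the phosphatase *Ptprb* lay between -0.06 and 0.04 and overlapped.

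The transcription factors of the endothelium were close to equal between genotypes. *Ets1*, the member of this set with the largest difference, was at 9.35 and 9.24 in Jun delta mu hearts, against 9.51 and 9.44 in Jun f/f hearts. The groups were separate and the difference was -0.18 (standard error 0.09, adjusted p = 0.896). Its 4 probe sets ranged from -0.27 to 0.01. *Erg*, an ETS factor that marks endothelium in most vessels, was at 7.78 and 7.81 in Jun delta mu hearts, against 7.76 and 7.80 in Jun f/f hearts, a difference of 0.01. *Fli1* was at -0.09. Of the SoxF factors, *Sox17* was at -0.03, *Sox18* at 0.03 and *Sox7* at 0.12, where *Sox7* was at 8.22 and 8.23 in Jun delta mu hearts, against 8.07 and 8.15 in Jun f/f hearts, and had separate groups. For *Sox17*, *Sox18*, *Fli1* and *Erg* the sign depended on which array was left out.

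Genes for vascular tone, coagulation and lipid handling did not share a direction. *Procr*, the receptor of protein C, had the largest difference at -0.15. It was at 4.45 and 4.57 in Jun delta mu hearts, against 5.01 and 4.32 in Jun f/f hearts. The Jun f/f arrays were the highest and the lowest of the 4, and the difference became -0.50 and passed the threshold with Jun f/f replicate 2 left out, and 0.20 with replicate 1 left out. *Vwf*, the von Willebrand factor that binds platelets, was at 9.43 and 9.50 in Jun delta mu hearts, against 9.15 and 9.54 in Jun f/f hearts, a difference of 0.12 that turned to -0.07 without Jun f/f replicate 1. *Nos3*, the endothelial nitric oxide synthase, was at -0.10 with groups separate by 0.02. *Thbd*, which encodes thrombomodulin, was at 0.03 and *Gpihbp1*, which carries lipoprotein lipase to the capillary surface, at 0.01.

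**Figure D3:**
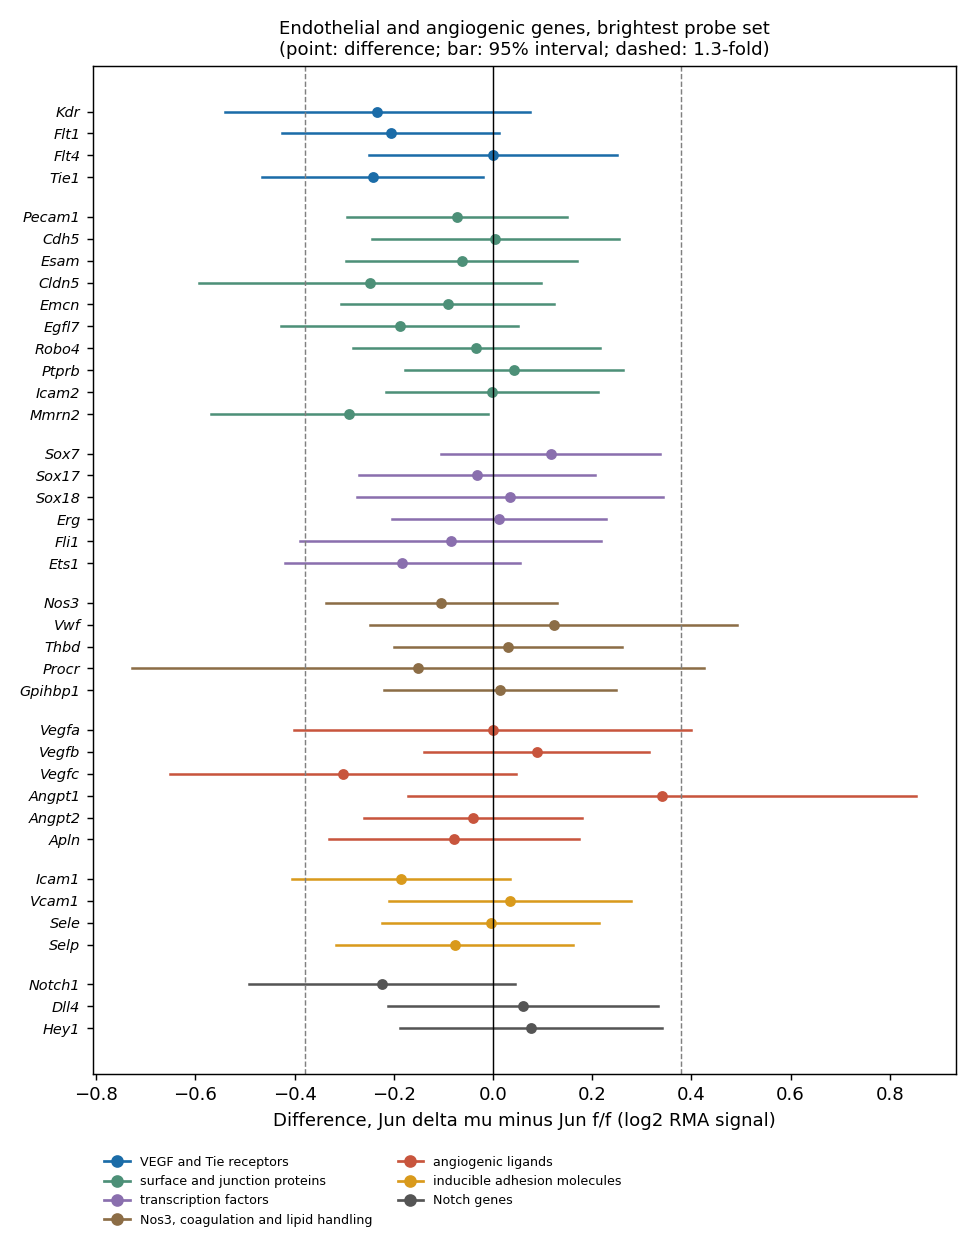
Difference in log2 RMA signal, Jun delta mu minus Jun f/f (horizontal axis), of the brightest probe set of each of the 38 genes, grouped by role, with 95% intervals from limma as bars and 1.3-fold as dashed lines. No point lies beyond 1.3-fold, and the intervals of Tie1 and Mmrn2 leave out 0.

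The ligands were spread widest and in both directions. *Angpt1*, the angiopoietin that activates Tek and is made by mural and muscle cells, was at 10.22 and 9.91 in Jun delta mu hearts, against 9.99 and 9.46 in Jun f/f hearts. The groups overlapped, and Jun f/f replicate 2 was low. The difference of 0.34 (standard error 0.20, adjusted p = 0.896) became 0.61 and passed the threshold when Jun f/f replicate 1 was left out, and became 0.07 when replicate 2 was. Its second probe set was at 0.17. *Vegfc*, the ligand of Flt4 and Kdr, was at 7.51 and 7.68 in Jun delta mu hearts, against 8.06 and 7.74 in Jun f/f hearts. The groups were separate by 0.06, with a difference of -0.30 (standard error 0.14, adjusted p = 0.896) that became -0.14 when Jun f/f replicate 1 was left out, and -0.47 and past the threshold when replicate 2 was. All 3 of its probe sets were below 0, from -0.31 to -0.21. *Vegfa*, the main ligand of Kdr and Flt1 and a product of cardiac muscle, was at 9.59 and 9.50 in Jun delta mu hearts, against 9.33 and 9.77 in Jun f/f hearts. Both Jun delta mu hearts lay between the Jun f/f hearts, and the difference was 0.00 with a 95% interval from -0.40 to 0.40. It became 0.22 with Jun f/f replicate 2 left out and -0.22 with replicate 1 left out, so that the Jun f/f hearts differed more from each other than the genotypes did. *Vegfb*, a ligand of Flt1 that is abundant in heart muscle, was at 10.91 and 10.94 in Jun delta mu hearts, against 10.79 and 10.89 in Jun f/f hearts, a difference of 0.09 with separate groups. *Angpt2* was at -0.04, and at 0.08 by its dim second probe set. *Apln*, the peptide apelin of sprouting endothelium, was at -0.08 and overlapped.

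The adhesion molecules that activated endothelium puts on its surface differed little. *Icam1*, a ligand of leukocyte integrins, was at 6.63 and 6.57 in Jun delta mu hearts, against 6.77 and 6.80 in Jun f/f hearts. Its groups were separate by 0.14, and its difference was -0.19 (standard error 0.09, adjusted p = 0.896). *Vcam1* was at 8.10 and 8.08 in Jun delta mu hearts, against 8.14 and 7.98 in Jun f/f hearts, a difference of 0.03, and the other 2 probe sets were at -0.04 and -0.05. The selectins, which slow leukocytes on the vessel wall, had signals near the bottom of the scale. *Sele* was at 3.38 and 3.33 in Jun delta mu hearts, against 3.35 and 3.37 in Jun f/f hearts. *Selp* was at 4.49 and 4.63 in Jun delta mu hearts, against 4.62 and 4.65 in Jun f/f hearts, and its next probe set was at 0.22. Signals this low set no bound on a change in the RNA.

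The AP-1 motif TGANTCA was found in 3 of the 24 windows, or 12.5%, against 7.81% of all promoter windows. So few windows cannot tell these shares apart. The 3 matches are printed with 10 bases on each side and the motif in capitals, because AP-1 is the factor that the deletion removes a subunit of in muscle.
Sele, chr1:164048151-164048177, plus strand: taatgtcctaTGACTCAcaggaagcca
Selp, chr1:164115115-164115141, plus strand: tgtccaggcaTGATTCAcacctgcgcc
Procr, chr2:155751053-155751079, plus strand: cccaccccccTGACTCAgcggcgacct

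The matches begin 73 bases before the start in *Sele*, 139 in *Selp* and 154 in *Procr*. These are also the 3 genes of the group whose signal was below the array median. The difference was -0.005 for *Sele*, -0.08 for *Selp* and -0.15 for *Procr*, and none passed. At such low signals, where RMA values compress differences, these values cannot be set against the motif.

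The Notch genes did not share a direction. *Notch1*, the receptor, was at 8.21 and 8.35 in Jun delta mu hearts, against 8.58 and 8.42 in Jun f/f hearts. Its groups were separate by 0.07, its difference was -0.22 (standard error 0.11, adjusted p = 0.896), and its second probe set was at -0.07. *Dll4*, its ligand on tip cells, was at 0.06 and -0.06 by its 2 probe sets. *Hey1*, a target of the pathway, was at 7.23 and 7.41 in Jun delta mu hearts, against 7.29 and 7.19 in Jun f/f hearts, and its groups overlapped.

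Endothelial markers, ligands and adhesion molecules were compared on each array by their mean deviation from each gene's 4-array mean. The 25 endothelial markers averaged -0.05 and -0.03 on the Jun delta mu arrays, against 0.04 and 0.03 on the Jun f/f arrays. Their mean difference was -0.07, with 16 of 25 below 0 and a median of -0.06, and it stayed between -0.09 and -0.06 whichever array was left out. The 4 adhesion molecules averaged -0.03 on each Jun delta mu array, against 0.04 and 0.02 on the Jun f/f arrays. Their mean difference of -0.06 rested on *Icam1* and *Selp*, and it was -0.0026 when the median over the probe sets of each gene was taken, by which *Selp* was at 0.22. The 6 ligands averaged 0.01 and -0.01 on the Jun delta mu arrays, against 0.01 and -0.01 on the Jun f/f arrays, with no difference between the genotypes in their mean, since *Angpt1* and *Vegfc* cancelled. The 3 Notch genes averaged -0.07 and 0.04 on the Jun delta mu arrays, against 0.02 and 0.01 on the Jun f/f arrays. The classes were chosen with earlier results of these data known, and their means were given no test.

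**Figure D4:**
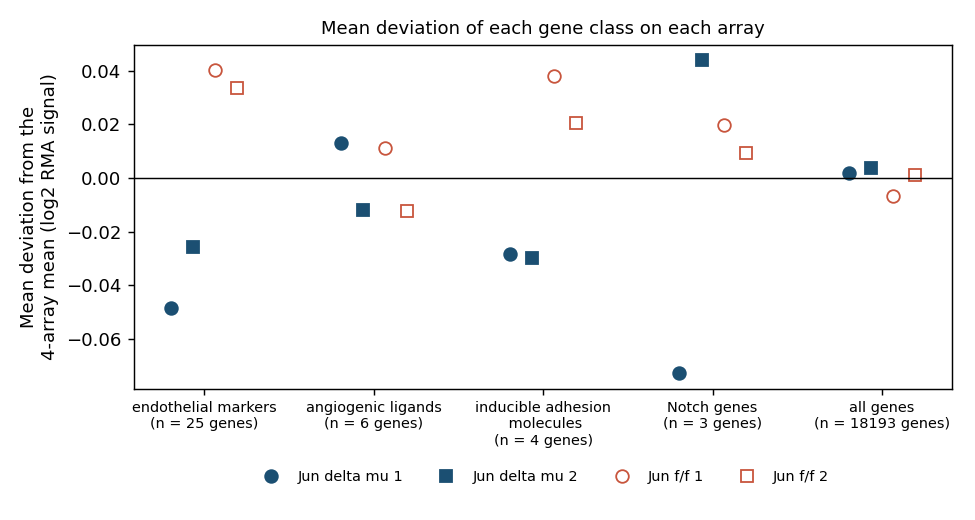
Mean deviation from the 4-array mean in log2 RMA signal (vertical axis) of the 4 gene classes and of all 18193 genes on each array, with filled symbols for Jun delta mu hearts and open symbols for Jun f/f hearts. The endothelial markers and the adhesion molecules lie below 0 on both Jun delta mu arrays and above 0 on both Jun f/f arrays, whereas ligands and Notch genes do not separate by genotype. By the median over probe sets the difference of the adhesion molecules is -0.0026.

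A longer list of other endothelial and angiogenic genes also lay mostly on the lower side. Of 83 symbols listed, 81 were measured. Their median difference was -0.06, with 58 below 0 and 23 above. Both Jun delta mu arrays lay below both Jun f/f arrays for 32 genes, 39.5%, and above for 7, where all genes gave 15.9% and 17.8%. By their brightest probe sets 2 passed the study's threshold, both higher, and none passed lower, against 1.45% of all genes. *Rgcc*, a cell cycle regulator that endothelium expresses, was at 11.09 and 11.00 in Jun delta mu hearts, against 10.66 and 10.63 in Jun f/f hearts, a difference of 0.40 (standard error 0.09, adjusted p = 0.896). Its other probe set was at 0.11 and overlapped. *Angpt4*, another ligand of Tek, was dim, at 5.04 and 5.18 in Jun delta mu hearts, against 4.57 and 4.85 in Jun f/f hearts, a difference of 0.40 (standard error 0.13), and its other probe set was at 0.14. The study selected both probe sets from these same arrays, so that they are not independent evidence. *Tek*, named here after its values were seen because it is the partner of Tie1, was at 9.63 and 9.52 in Jun delta mu hearts, against 9.82 and 9.76 in Jun f/f hearts. The difference of -0.21 was close to those of *Tie1*, *Flt1* and *Kdr*, and the groups were separate. *Nrp1*, a coreceptor of VEGF, was at 0.06 and overlapped.

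Some markers of other cells also differed between the genotypes, and their part in the differences was not tested. Over all genes 47.6% were below 0 and 1.45% passed. Of 9 mural cell markers 7 were below 0 and 1 passed, the smooth muscle gene *Cnn1*, at 4.67 and 5.11 in Jun delta mu hearts, against 5.81 and 5.31 in Jun f/f hearts. The list averaged -0.24 and -0.02 on the Jun delta mu arrays, against 0.20 and 0.05 on the Jun f/f arrays. The other smooth muscle genes, *Tagln*, *Myh11* and *Acta2*, were at -0.57, -0.42 and -0.34. Of the pericyte genes, *Kcnj8* was at -0.22, *Pdgfrb* at -0.13, *Rgs5* at -0.02, *Cspg4* at 0.00 and *Abcc9* at 0.08. Of 6 fibroblast markers 3 were above 0, led by *Lum* at 0.32 and *Dpt* at 0.31, and none passed. The 8 cardiac muscle markers, all at 12.8 or above, lay between -0.11 and 0.14. Lymphatic markers included *Prox1* at -0.30 and *Lyve1* at -0.04, and none of the 4 passed. The 3 markers of endocardium were all below 0, from -0.21 to -0.01, and none passed. *Alas2*, a red blood cell gene of heme synthesis, also passed on the lower side, at 10.16 and 9.62 in Jun delta mu hearts, against 10.45 and 10.32 in Jun f/f hearts, a difference of -0.49. *Hba-a1*, the other red blood cell gene measured, was dim, at 3.47 to 3.59 over the arrays. Its difference of -0.01 sets no bound on a change in the RNA. Of 5 macrophage markers 4 were below 0 and none passed. *Fcgr1* was at -0.34 with separate groups, whereas *Csf1r*, the brightest of them, was at 0.19 with separate groups on the higher side. *Adgre1*, *Cd68* and *C1qa* lay between -0.07 and -0.02. Of 4 platelet markers 2 were below 0 and 2 above, with *Ppbp* at -0.32 and *Pf4* at 0.22, and none passed. The adipocyte gene *Adipoq* was at 0.51 with separate groups and did not pass. Atrial genes were high on Jun delta mu replicate 2, with *Sln* at 8.11 there and at 3.81 to 4.15 on the other arrays. Without that array the mean difference of the endothelial markers was -0.09.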

How the data were processed

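Total RNA of 4 hearts was hybridized to Affymetrix mouse expression arrays. The authors processed the raw data with the Affymetrix AGCC software, and RMA and the oligo package are listed in the processing notes of the submitters, with versions not given in the sources used here. The deposited values are log2 RMA signals, on which the authors had already done background correction and normalization, for 45101 probe sets without detection calls. The number of arrays limits the precision.

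The 64 AFFX controls were left out and a linear model was fitted to 45037 probe sets (limma 3.58.1 under R 4.3.3, moderated by eBayes, genotype as the only term, two-sided, no filter, 2 residual degrees of freedom), with Benjamini-Hochberg adjustment over all of them and 95% intervals from the same fit. The moderation added 3.46 prior degrees of freedom, so that the tests and intervals used 5.46. The procedure was tested on simulated data. Genes were named by the platform annotation, in which 34945 probe sets have 1 symbol, 932 have several and 9160 have none. A gene was described by its probe set with the highest mean signal. Arrays were grouped by the genotype in their descriptions. The methods' own test, for which limma stands here, was among the alternatives, with 3 normalizations, another prior, a replicate block, a filter on signal, linear means, a choice of probe sets, the median over probe sets, and leaving out each array.

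Genes with values on each array are *Pecam1*, *Cdh5*, *Kdr* and *Vegfa*, those past the threshold, and the largest difference of each role. Others were named after their values were seen. The genes, lists and tests were chosen with earlier results of these data known. Nothing says whether the hearts of 1 genotype came from 1 litter. Figures were drawn with matplotlib 3.10.9.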

Additional observations from a re-analysis of the deposited data

How the results depend on the processing

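The count of probe sets past the study's threshold was 0 under quantile, cyclic loess and median normalization, the methods' t-test, a trended robust prior, the filter on signal and specific probe sets only. Leaving out single arrays gave 0 to 7, the 7 when Jun f/f replicate 2 was left out, and 4 when replicate 1 was. In these fits the spread of a genotype left with 1 heart was taken from the other genotype. With the replicate number as a block the count was 0 as well, and 683 of all probe sets passed, against 688 without it. Hearts of the same number share only that number, and their deviations correlated at 0.03 across probe sets. The mean difference of the endothelial markers, -0.07, was -0.056 with quantile normalization, -0.059 with cyclic loess and -0.061 with specific probe sets only. That of the ligands was 0.019 with quantile normalization. That of the adhesion molecules was -0.076 after dropping the dimmest 40% of probe sets, which leaves out the selectins, and -0.0026 as the median over probe sets.

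The sign of genes near 0 was not stable. With quantile normalization *Robo4* was at 0.0067, *Icam2* at 0.026 and *Vegfa* at 0.010, and with cyclic loess *Icam2* was at 0.017 and *Vegfa* at 0.011. As the median over probe sets, *Cdh5* was at -0.092, *Egfl7* at 0.0024, *Ptprb* at -0.055, *Angpt2* at 0.022, *Vcam1* at -0.039 and *Selp* at 0.22. Leaving out single arrays gave -0.12 to 0.049 for *Robo4*, -0.0092 to 0.0044 for *Icam2*, -0.22 to 0.22 for *Vegfa*, -0.066 to 0.075 for *Cdh5*, -0.044 to 0.11 for *Vcam1*, -0.099 to 0.035 for *Sox17*, -0.021 to 0.082 for *Thbd*, -0.10 to 0.17 for *Sox18*, -0.035 to 0.064 for *Gpihbp1* and -0.032 to 0.022 for *Sele*. It gave -0.014 to 0.17 for *Hey1*, -0.0073 to 0.032 for *Erg*, -0.22 to 0.049 for *Fli1*, -0.073 to 0.32 for *Vwf*, -0.50 to 0.20 for *Procr*, -0.050 to 0.17 for *Dll4* and -0.17 to 0.0097 for *Apln*. The cause was not tested.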

Other observations

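Outside the genes described above, *Angptl4*, a secreted inhibitor of lipoprotein lipase from the longer list of angiogenic genes, had the largest difference of that list, and it was named after its values were seen. It was at 6.14 and 6.68 in Jun delta mu hearts, against 7.91 and 6.54 in Jun f/f hearts. The groups overlapped and the threshold was not passed, with a difference of -0.81 and a 95% interval from -1.95 to 0.32. Jun f/f replicate 1 was also the highest array for *Procr*, *Vegfc*, *Mmrn2* and *Cldn5* and the lowest for *Vegfa* and *Vwf*.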
